A study of Rattus norvegicus and Mus musculus with 22 samples.

Results

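CRTC2 knockout islets without forskolin were set against wild-type islets without forskolin, with 1 library per genotype. Of 23356 genes in the table, 5588 had at least 10 FPKM (fragments per kilobase of transcript per 1 M fragments) in the higher of the 2 libraries and were compared. The log2 ratio of knockout over wild type, with 1 FPKM added to both values, was at least 1 (2-fold higher) for 164 genes, or 2.93% of those tested. It was at most -1 (2-fold lower) for 107 genes, or 1.91%. With 1 library per genotype there was no spread between replicates, so these are differences between libraries with no test.

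CRTC2 is a coactivator of CREB, the transcription factor that cAMP signalling activates through protein kinase A. When cAMP or calcium rises, CRTC2 loses its inhibitory phosphorylation by salt-inducible kinases, enters the nucleus and binds CREB on promoters with cAMP response elements. In beta cells CREB and its coactivators act downstream of glucose and incretin hormones, and in liver CRTC2 is known for driving gluconeogenic genes during fasting.

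Both groups were cultured primary islets of mice, taken as total RNA. The wild-type mice were of a black6 strain, and the knockout mice were labelled whole body, which is taken to mean that every cell type of the islet preparation carried the allele. The labels give no age, no strain background for the knockout and no extent of the deletion, and do not say how many mice were pooled. A second pair of libraries in the same table came from islets of both genotypes given 10 µM forskolin, an activator of adenylyl cyclase, for 2 hours; it shared no library with the baseline pair and is given beside it. The series held 22 libraries, of which 4 are in the knockout table.

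Estimated depth was 2.16 M reads in the wild-type baseline library and 5.72 M in the knockout baseline library. In the forskolin pair it was 2.26 M for wild type and 0.607 M for knockout, so the forskolin ratios of low genes are the less precise. Ins2 alone took 35.6% of the reads of the wild-type baseline library and 25.2% of those of the knockout. Scaling both columns without the hormone, acinar and hepatocyte lists would raise the baseline log2 ratios by 0.23, and the forskolin ratios by 0.11. These shifts hold without the added 1 FPKM. With it, the rise is smaller for genes low in the knockout. The wild-type column does not name its library. It may be the same RNA as 1 of the 2 wild-type control libraries of a separate, replicated islet table. Over 5314 genes, with length-scaled log2 values, its Pearson correlation was 0.940 with control library 2 and 0.908 with control library 1. For the knockout column these were 0.862 and 0.868. The 2 control libraries differed with an SD of 0.23 on a regularised log2 scale, over the genes left once other cell types were set apart. The knockout and wild-type log2 ratios had an SD of 0.47 over the same genes, on the FPKM scale.

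The islet preparations differed most in exocrine and liver transcripts. All 25 acinar markers tested (digestive enzymes and other products of exocrine pancreas) stood at least 2-fold lower in the knockout, with a median log2 ratio of -3.25. Ctrb1, which encodes chymotrypsinogen, was at 1826 FPKM in the wild-type baseline library, 138 in the knockout baseline library, 3528 with forskolin in wild type and 871 with forskolin in knockout. The knockout library was the lower in each pair, by 3.72 on the log2 scale at baseline and by 2.02 with forskolin. Summed over all 38 listed acinar markers, the levels were 4433 FPKM in wild type and 397 in knockout at baseline, and 7867 and 2167 FPKM with forskolin. Of these markers 5 were at 0 in wild type and 6 in knockout at baseline. In the replicated table, the median acinar marker already differed by -0.96 between the 2 wild-type controls (library 1 minus library 2). The wild-type column here correlated more closely with library 2, the one with more acinar transcripts. In bulk samples like these, fewer cells of a type and less RNA per cell cannot be told apart.

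Liver transcripts went the other way. Of 20 hepatocyte markers tested, 17 stood at least 2-fold higher in the knockout, with a median log2 ratio of 2.97. Between the 2 wild-type controls of the replicated table the median hepatocyte marker differed by 0.71 (library 1 minus library 2), so library 2 held less. Alb, which encodes serum albumin, was at 41.2 FPKM in wild type and 298 in knockout at baseline, and at 45.2 and 1436 FPKM with forskolin. The knockout was thus the higher in both pairs, and its forskolin library held more Alb than its baseline library. The 26 listed hepatocyte markers, of which Ttr and Rbp4 are also made by alpha or delta cells, summed to 1969 and 2635 FPKM at baseline and to 1862 and 7352 FPKM with forskolin, and none was at 0 at baseline. Of the 15 genes with the highest log2 ratios by the rule for named genes, 11 were liver-marked, among them the apolipoprotein genes Apoa4, Apoc1 and Apoc4. Part of that class was added after these values were seen, and without the added genes 7 of the 15 were liver-marked. Slpi, also of that class, was at 22.1 FPKM in the knockout baseline library but at 4.64 in the knockout forskolin library, unlike Alb. Pck1, the gluconeogenic enzyme and a classical CREB and CRTC2 target in liver, was likewise liver-marked. It was at 1.44 FPKM in wild type and 11.7 in knockout at baseline, and at 3.20 and 47.5 FPKM with forskolin. Whether Pck1 moved in islet cells or came with the liver transcripts was not tested.

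**Figure D1:**
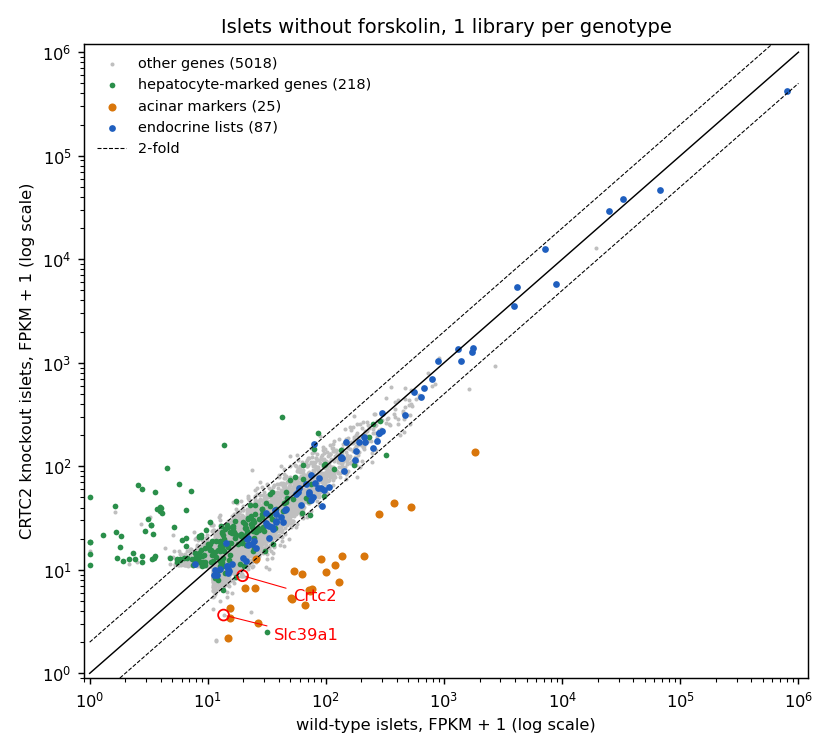
FPKM + 1 of each gene in the knockout baseline library (vertical) against the wild-type baseline library (horizontal), both on log scales, with 1 point per gene and lines at equality and at 2-fold. Acinar markers lie below the lower 2-fold line, many liver-marked genes lie above the upper one, and endocrine genes keep close to equality.

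Genes were therefore set apart before the endocrine comparison. The sets removed were 25 acinar genes, 222 liver-marked genes, 34 markers of other cell types, 11 transcripts under 300 bases and 196 genes with no transcript length. Liver-marked genes were those on the hepatocyte list, 22 further liver genes added after their values were seen, and genes at least 3 higher on the log2 scale in cultured hepatocytes than in islets. The class also held Krt8 and Krt18 of the ductal list, Vim of the stellate list and the ribosomal gene Rps19. It is therefore not made of liver transcripts alone. In the 5100 genes left, 89 (1.75%) stood at least 2-fold higher in the knockout and 64 (1.25%) at least 2-fold lower, and the median log2 ratio was -0.11. With the added liver genes kept in, 100 of 5111 (1.96%) were higher and 64 lower. Of the 5100 genes 81% lay within 1.5-fold. The very short transcripts cannot be read: Mir5133, for instance, was listed at 943982 FPKM in wild-type baseline islets and at 0 in the other libraries.

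Crtc2 itself was lower in the knockout but was still detected. It was at 18.7 FPKM in wild type and 7.77 in knockout at baseline, and at 13.9 and 9.58 FPKM with forskolin. Both knockout libraries were below both wild-type libraries. The baseline log2 ratio was -1.16, and without the added 1 FPKM its 95% interval was -1.65 to -0.86. That interval, like the others below, is an exact conditional binomial one on estimated reads and covers counting error only. Values per gene do not show which exons the remaining 116 estimated reads of the knockout baseline library came from. In the fit of genotype over all 4 libraries described below, Crtc2 stood 0.83 lower on the log2 scale (SE 0.263) with an adjusted p of 0.202 by limma, so it did not pass.

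The other 2 members of the family also had lower values. Crtc1, the form best known from brain, was at 15.1 FPKM in wild type and 10.7 in knockout at baseline, and at 12.9 and 9.33 FPKM with forskolin. Crtc3 was at 10.3 and 6.84 FPKM at baseline and at 8.65 and 8.2 FPKM with forskolin. Their baseline log2 ratios were -0.46 and -0.52. Creb1, which encodes CREB, lay under the 10 FPKM minimum in all 4 libraries, with 3.36 FPKM in wild type and 4.55 in knockout at baseline. Crebbp and Ep300, the histone acetyltransferases that CREB recruits, had baseline log2 ratios of -0.95 and -0.48, and Sik3, a kinase that phosphorylates CRTC2, -0.38. None of the 7 tested CREB cofactor genes had a ratio above 0, and only Crtc2 was past 2-fold. Crtc2, Crtc3 and Crem reached 10 FPKM in wild type only, so the minimum favoured ratios below 0 for them. Of the members under the minimum, Creb1 and Atf1 had ratios of 0.35 and 0.42, and Sik1, Sik2 and Creb3l4 ratios below 0. Several of the tested genes are long transcripts, and long transcripts had lower ratios in these libraries. Relative to genes of like length the list's median was -0.25, against -0.48 as measured.

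A gene beside Crtc2 differed more than Crtc2 did. Crtc2 lies on chromosome 3 from 90254163 to 90264125 on the plus strand of the mm10 genome. Slc39a1, which encodes a zinc transporter, lies at 90248172 to 90253612 on the same strand and ends 550 bases before Crtc2 begins. It was at 12.6 FPKM in wild type and 2.66 in knockout at baseline, and at 13.1 and 3.62 FPKM with forskolin. Both knockout libraries were far below both wild-type libraries, by 1.90 on the log2 scale at baseline (95% interval without the added 1 FPKM -2.86 to -1.62) and by 1.61 with forskolin. The 2 wild-type controls of the replicated table differed by -0.14 for this gene on the regularised log2 scale, which is not directly comparable with that of the ratios. In the 4-library fit Slc39a1 was 1.75 lower (SE 0.388), with an adjusted p of 0.141 by limma.

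Of 76 tested genes that start within 5 Mb of Crtc2, 4 (5.26%) stood at least 2-fold lower, against 2.91% of 172 tested genes on the rest of chromosome 3 and 1.72% of 5050 on other chromosomes. Beside Slc39a1 these were Sprr1a, S100a6 and S100a11, all of which are liver-marked by the rule above, a class with 3.15% of its genes at least 2-fold lower. Sprr1a, a cornified envelope gene, was at 31.0 FPKM in wild type and 1.49 in knockout at baseline, and at 37.7 and 13.3 FPKM with forskolin. S100a6, a calcium-binding protein, was at 29.3 FPKM in wild type and 14.1 in knockout at baseline, and the other way round with forskolin, at 15.5 and 27.3 FPKM. The nearest tested gene on the other side of Crtc2, Gatad2b, had a baseline log2 ratio of -0.56. Lamtor2 was the 1 gene at least 2-fold higher in the window.

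**Figure D2:**
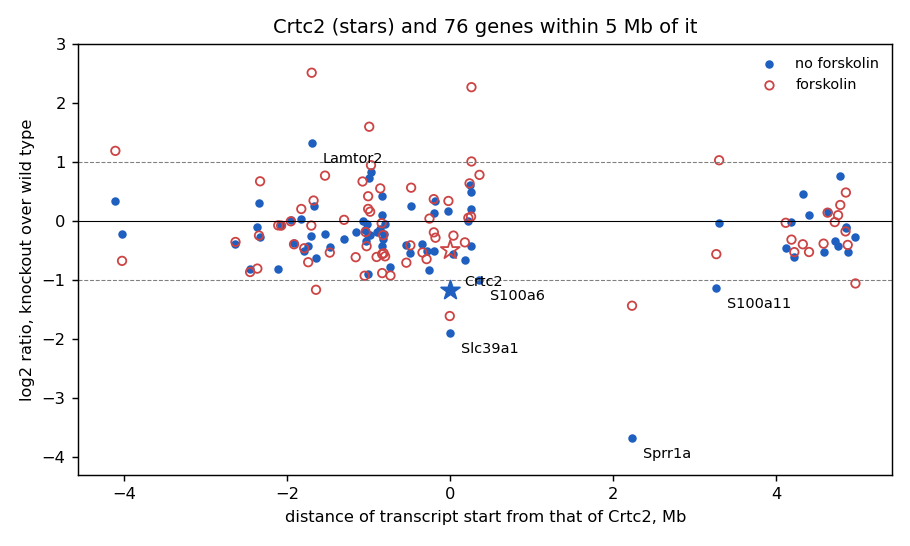
Log2 ratio of knockout over wild type (vertical) against the distance of each transcript start from that of Crtc2 in Mb (horizontal), for Crtc2 (stars) and 76 genes, without forskolin (filled) and with forskolin (open). Slc39a1 lies beside Crtc2 and below -1 in both pairs, whereas most other neighbours lie between -1 and 1.

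Endocrine genes kept within narrow bounds. The 5 endocrine lists (hormones, beta cell transcription factors, alpha and delta cell markers, glucose sensing, and granule and exocytosis genes) held 87 tested genes. Among them 1 (Rbp4) stood at least 2-fold higher and 1 (Ffar1) at least 2-fold lower in the knockout, or 1.15% each way, near the background. A larger share lay slightly below equality: 71 of 87 (81.6%) had ratios below 0, with a median of -0.35, against 58.5% and a median of -0.10 in the 5016 genes outside these lists. Relative to genes of like length, 78.2% of the endocrine genes were below 0 at baseline against 49.5% of the others. With forskolin, where ratios were not adjusted for length, the shares below 0 were 65.5% and 58.8%. After rescaling without hormone, acinar and hepatocyte genes, the medians of the beta cell transcription factor, glucose sensing and granule lists were still below 0, at -0.19, -0.11 and -0.12, while that of the alpha and delta cell list turned from -0.12 to 0.10 and that of the hormones went to 0.27.

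Among hormones, insulin stood lower at baseline and the pancreatic polypeptide gene higher. Ins2 was at 807124 FPKM in wild type and 426419 in knockout at baseline, and at 757933 and 832709 FPKM with forskolin. The knockout baseline library was the lowest of the 4, with a log2 ratio of -0.92 at baseline and 0.14 with forskolin, so the direction was not shared by the pairs. Ins1 was at 67342 and 46945 FPKM at baseline and at 83167 and 114542 FPKM with forskolin, which gave ratios of -0.52 and 0.46. Both wild-type control libraries of the replicated table were close for Ins2, differing by 0.05, and differed by 0.44 for Ins1.

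Ppy, made by PP cells, was at 7113 FPKM in wild type and 12627 in knockout at baseline, and at 13059 and 25136 FPKM with forskolin. It was higher in the knockout of each pair, by 0.83 and 0.94 on the log2 scale. The 2 wild-type controls of the replicated table lay nearly as far apart, by 0.79. Gcg, the glucagon gene of alpha cells, was at 24667 and 29438 FPKM at baseline, a log2 ratio of 0.26, and at 22059 and 31340 FPKM with forskolin. Sst, the somatostatin gene of delta cells, was at 3936 and 3556 FPKM at baseline, a ratio of -0.15, where the wild-type controls differed by 1.10. Iapp, the amyloid polypeptide secreted with insulin, had ratios of 0.22 and 0.38 in the 2 pairs. Of 10 hormone genes none was past 2-fold, and their median was 0.04 as measured and -0.26 relative to genes of like length.

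Beta cell transcription factors lay mostly below equality. Of 19 tested, 17 had ratios below 0 and none was past 2-fold, with a median of -0.41 at baseline and -0.15 with forskolin. Pdx1, the master regulator of pancreas and beta cells, was at 106 FPKM in wild type and 62.8 in knockout at baseline, and at 161 and 195 FPKM with forskolin. The knockout was the lower of the baseline pair (log2 ratio -0.75, 95% interval without the added 1 FPKM -0.97 to -0.54) and the higher of the forskolin pair. Neurod1, an islet helix-loop-helix factor, was at 96.2 and 57.6 FPKM at baseline and at 258 and 235 FPKM with forskolin. Its ratios were -0.73 and -0.14. Glis3, a zinc finger activator of the insulin gene, kept its direction, with ratios of -0.65 and -1.04. Mafa and Isl1, 2 further activators of insulin transcription, had baseline ratios of -0.24 and 0.06.

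Glucose sensing genes gave a like picture, with 19 of 22 below 0 and a median of -0.34. Ffar1, the fatty acid receptor that augments insulin secretion, was at 91.3 FPKM in wild type and 40.4 in knockout at baseline, and at 48.6 and 44.6 FPKM with forskolin. The wild-type baseline library stood alone as the high one. Its log2 ratio was -1.16 at baseline (95% interval without the added 1 FPKM -1.47 to -0.88) and -0.12 with forskolin. Slc2a2, the glucose transporter of beta cells, was at 249 and 150 FPKM at baseline and at 93.2 and 92.3 FPKM with forskolin. Again only the baseline pair differed, with a ratio of -0.73. Abcc8, the sulfonylurea receptor subunit of the ATP-sensitive potassium channel, had ratios of -0.64 and -0.56. Prlr, the prolactin receptor, had -0.67 and -1.09. Relative to genes of like length the median of the glucose sensing list was -0.10.

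Granule and exocytosis genes were 31 in number, of which 26 lay below 0 and none was past 2-fold, with a median of -0.34 in both pairs. Chga, the granule protein chromogranin A and a known CREB target, was at 8791 FPKM in wild type and 5704 in knockout at baseline, and at 16559 and 10927 FPKM with forskolin. The knockout was the lower in each pair by about the same amount, 0.62 and 0.60 on the log2 scale. The processing enzymes Pcsk1 and Pcsk2 had baseline ratios of -0.15 and -0.42, the granule zinc transporter Slc30a8 -0.58, the synaptotagmin Syt7 -0.63 and the SNARE gene Vamp2 -0.66. Among 8 alpha and delta cell markers, Rbp4 stood higher, at 78.3 and 163 FPKM at baseline and 141 and 313 FPKM with forskolin. Rbp4 is also made by liver and is on the hepatocyte list, and the part that the liver transcripts had in its ratio was not tested.

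**Figure D3:**
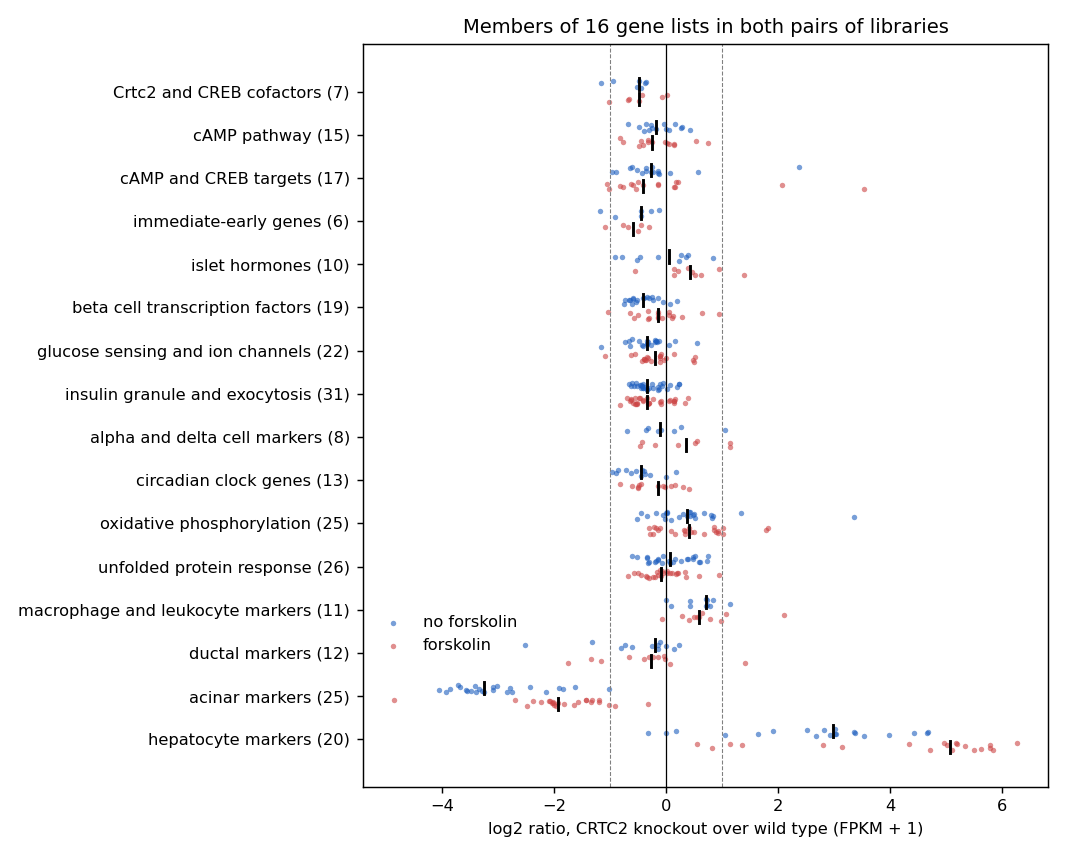
Log2 ratio of knockout over wild type (horizontal) for the tested members of 16 gene lists, 1 point per gene, without forskolin (blue) and with forskolin (red), where black bars are medians and dashed lines mark 2-fold. Apart from Rbp4 and Ffar1, endocrine genes lie within 2-fold at baseline, and the beta cell transcription factor, glucose sensing and granule lists lie mostly below 0; acinar markers lie near -3 and hepatocyte markers near 3.

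Part of the cAMP and CREB programme was too low at baseline to be tested. Of 32 listed CREB targets, 17 reached 10 FPKM. In these, 14 had ratios below 0, none was at least 2-fold lower and 1, the liver-marked Pck1, was at least 2-fold higher, with a median of -0.27. Rescaling brings that median to -0.04. Per1, a clock gene induced by cAMP, was at 16.1 FPKM in wild type and 8.19 in knockout at baseline, and at 134 and 75.4 FPKM with forskolin. The knockout value was the lower in each pair, by 0.89 and 0.83 on the log2 scale. Crem, which encodes a CREB family factor and the inducible repressor ICER, was at 11.7 and 8.87 FPKM at baseline and at 313 and 153 FPKM with forskolin, with ratios of -0.36 and -1.02. Nr1d1, the clock repressor REV-ERB alpha, was at 50.1 and 25.1 FPKM at baseline and at 14.2 and 16 FPKM with forskolin, so it differed only in the baseline pair. Of 13 clock genes 12 had baseline ratios below 0, with a median of -0.45. Time of day is not given in the labels.

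Of 28 immediate-early genes, 6 reached 10 FPKM at baseline, all with ratios below 0. Ier3 and Jun reached it in wild type only, and members under the minimum had ratios on both sides of 0. Ier3, an early response gene, was at 22.9 FPKM in wild type and 9.54 in knockout at baseline, and at 337 and 158 FPKM with forskolin. It was past 2-fold in both pairs, with ratios of -1.18 and -1.09. Jun, an AP-1 subunit, had ratios of -0.91 and -0.69. Fos and Nr4a1, typical CREB targets, were under 10 FPKM in both baseline libraries, at 5.09 and 2.25 FPKM for Fos and 3.26 and 7.09 FPKM for Nr4a1. In the cAMP pathway none of 15 tested members was past 2-fold. Glp1r, the receptor of the incretin GLP-1, had ratios of -0.69 and -0.32, while the stimulatory G protein gene Gnas had a baseline ratio of 0.28. The pathway's median was -0.19. After rescaling it was 0.11, but there the 10 FPKM minimum was applied again to the rescaled values, so the members tested were not the same.

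The genes with the lowest ratios once other cell types were set apart belonged to varied functions. C2cd4b, one of a gene pair at a human diabetes risk locus, was at 30.1 FPKM in wild type and 9.63 in knockout at baseline, and at 414 and 211 FPKM with forskolin. Its ratios were -1.55 and -0.97. Thbs1, which encodes the matrix protein thrombospondin 1, was at 43.5 and 15.9 FPKM at baseline and at 52.1 and 21.3 FPKM with forskolin. Both knockout values were below both wild-type values, with ratios of -1.40 (95% interval without the added 1 FPKM -1.63 to -1.28) and -1.25. Scrt1, a neural and endocrine zinc finger repressor, was at 20.2 and 7.58 FPKM at baseline and at 19.9 and 7.32 FPKM with forskolin. Its ratios of -1.30 and -1.33 came with a difference of 0.53 between the wild-type controls of the replicated table. Cldn11, a tight junction claudin, had ratios of -1.35 and -1.40, but differed by -1.23 between those controls. Rpl7a, Muc4, Kcnj6 and Best3 were more than 2-fold lower at baseline and not with forskolin. Rpl7a has near-identical pseudogenes, so its value is uncertain. So is that of Adora3, an adenosine receptor gene with a ratio of -1.42, which was at 33.8 FPKM in wild type here but at only 1.69 and 1.96 on the regularised log2 scale in the replicated controls.

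Over all 5727 genes tested in the forskolin pair, 501 (8.75%) stood at least 2-fold higher in the knockout and 318 (5.55%) lower. Of the 64 genes lower at baseline, 54 also reached 10 FPKM in the forskolin pair, and 13 of these (24.1%) were again at least 2-fold lower, against 3.78% of all 4415 genes that reached the minimum in both pairs. The genes of this group, listed here after their values were seen, were Reg2, Slc39a1, Thbs1, Cldn11, Scrt1, Rps15a-ps4, Ier3, Prr12, Akap13, Pdyn, Zfp579, Zdhhc8 and Ttc28. Pdyn, the precursor of the dynorphin opioid peptides and a known CREB target, was at 68.3 FPKM in wild type and 31.2 in knockout at baseline, and at 90.1 and 43.1 FPKM with forskolin. Akap13, an anchoring protein of protein kinase A, was at 30.7 and 13.3 FPKM at baseline and at 58.4 and 21.6 FPKM with forskolin. For both genes the knockout was the lower in each pair. Akap13, Prr12 and Ttc28 have long transcripts, and relative to genes of like length their baseline ratios were -0.78, -0.86 and -0.65. Reg2, of a family that exocrine and injured pancreas express, was listed at 0 in the knockout forskolin library and moved with the acinar markers, whose part in it was not tested.

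**Figure D4:**
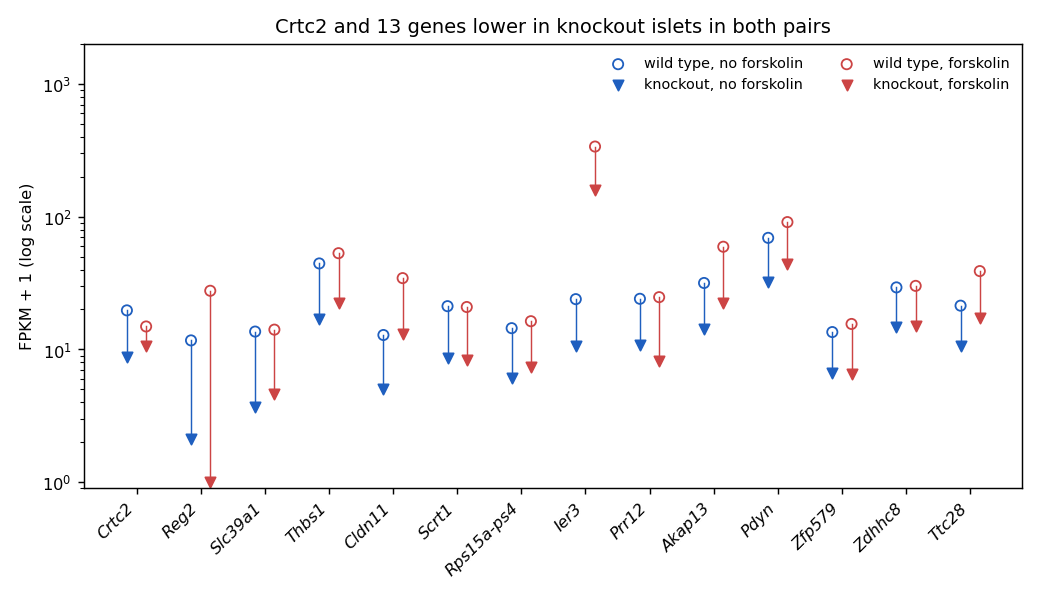
FPKM + 1 on a log scale (vertical) in the 4 libraries for Crtc2 and the 13 genes at least 2-fold lower in the knockout of both pairs, with lines joining wild type (open circles) to knockout (triangles). Each triangle lies below its circle; Ier3 is the gene whose levels differ most between the untreated and the forskolin libraries.

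Genes higher in the knockout were mostly short. Of the 89 higher genes, 72 reached 10 FPKM in the forskolin pair, and 34 of these (47.2%) were again at least 2-fold higher, against 4.78% of all. Of those 34, 30 had transcripts under 1200 bases. Uqcrb and Ndufb8, subunits of respiratory complexes III and I, had baseline ratios of 3.35 and 1.34, and Tomm5 and Mrpl32, of the mitochondrial import machinery and ribosome, 1.89 and 1.57. Of 25 tested oxidative phosphorylation genes 19 lay above 0, with a median of 0.37 that became 0.12 relative to genes of like length. Mzb1 and Igj, made by plasma cells, were at 35.5 and 51.8 FPKM in the knockout baseline library and at 0.654 and 0.692 FPKM in the wild-type one. In the knockout forskolin library they were at 2.22 and 0, so this difference belonged to 1 library. Of 11 leukocyte markers tested, 10 were above 0, with a median of 0.71, and Cd52 was past 2-fold. The summed level of the 26 leukocyte markers in the table was 260 FPKM in wild type and 400 in knockout at baseline, and 331 and 490 FPKM with forskolin. Ductal markers had a median of -0.20, against -0.09 over all tested genes, and of 0.02 after rescaling. Of 12 tested, 10 lay below 0 and 2 were at least 2-fold lower at baseline. These were Krt19, a duct keratin, and Clu, which is liver-marked. The 18 listed summed to 1452 FPKM in wild type and 1061 in knockout at baseline. The part of these cell types in the ratios of other genes was not tested.

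The ratio depended on transcript length. Its median was 0.51 in genes of 300 to 500 bases, 0.02 in those of 1200 to 2000 bases and -0.33 in those of 7000 bases or more. The forskolin pair went the same way, from 1.06 to -0.37, and the 2 wild-type controls of the replicated table less so, from 0.26 to -0.13. The median transcript of the higher genes had 897 bases and that of the lower genes 2123, against 2669 for all 5100. The part that length-dependent recovery of RNA had in any single ratio was not tested.

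**Figure D5:**
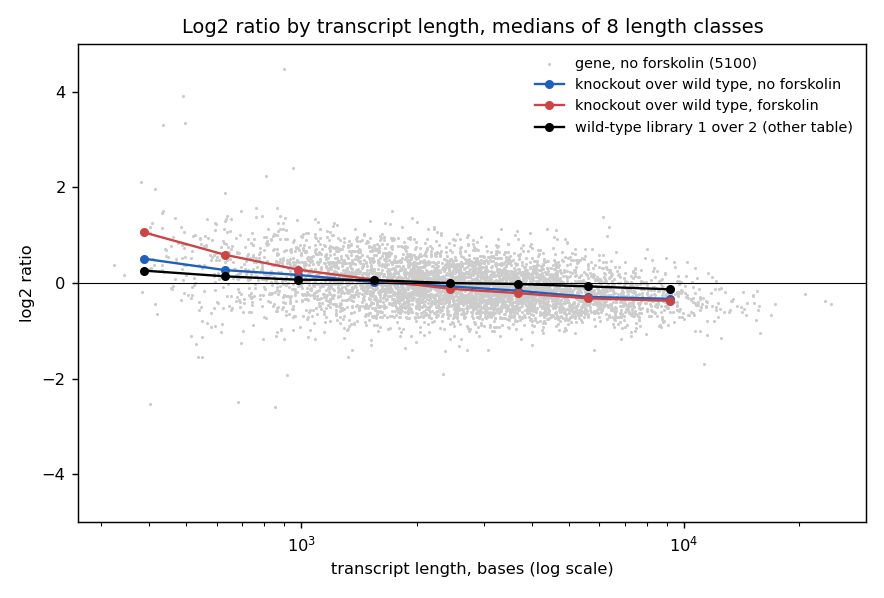
Log2 ratio (vertical) against transcript length in bases on a log scale (horizontal), with 1 grey point per gene for the baseline pair and lines for medians of 8 length classes in the baseline pair, the forskolin pair and the 2 wild-type controls of the replicated table. All 3 lines slope down with length, the forskolin pair most steeply.

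Against 2.93% of all tested genes past 2-fold higher and 1.91% lower, none of 26 unfolded protein response genes was past 2-fold, and their median was 0.06. Of 10 heat shock genes 2 were at least 2-fold lower, Bag3 and Cryab, with ratios of -1.32 and -1.60. Of 18 oxidant defence genes 2 were at least 2-fold lower and 1, the liver-marked catalase gene Cat, at least 2-fold higher (1.09). Cat was at 4.82 FPKM in wild type and 11.4 in knockout at baseline, and at 3.46 and 38.3 FPKM with forskolin. The part that the liver transcripts had in its ratio was not tested. The lower ones were Mt1 and Mt2, metallothioneins which bind zinc and copper. Their ratios were -1.54 and -1.55 at baseline and 0.64 and 0.53 with forskolin. Nnt, a mitochondrial transhydrogenase that is deleted in some black6 substrains, was detected in all 4 libraries at 10.6 to 15.8 FPKM. The Y-linked gene Ddx3y was present in each library, at 9.03 and 11.7 FPKM in the baseline pair, while Xist reached at most 0.067 FPKM.

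The 4 libraries were also fitted together, with genotype and treatment as terms, on log2(FPKM + 1) with limma. This fit has 1 residual degree of freedom per gene, moderated over genes, and takes genotype to act alike with and without forskolin. Of 6481 genes with at least 10 FPKM in a library, 26 (0.401%) rose in the knockout and 8 (0.123%) fell at an adjusted p under 0.05. All 8 that fell were acinar markers, and 22 of the 26 that rose were liver-marked, or 17 of 26 without the liver genes added after their values were seen. Without the variance trend no gene was called in either direction, and the smallest adjusted p by limma was 0.0909, with 1051 genes at an unadjusted p under 0.05. Fabp1, a liver fatty acid binding protein, rose with a fitted log2 difference of 4.51, an SE of 0.192 and an adjusted p of 0.00144 by limma. Pnliprp1, a pancreatic lipase-related protein, fell by 2.97 (SE 0.223, adjusted p = 0.0162 by limma).

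In the 5837 genes with other cell types set apart, 2 rose and none fell at that threshold, while 412 were higher and 627 lower at an unadjusted p under 0.05. Hist2h4, a replication-dependent histone gene, had a fitted log2 difference of 2.36 with an SE of 0.239 and an adjusted p of 0.0299 by limma. Tmsb15b1, a thymosin gene, rose by 3.85 (SE 0.493, adjusted p = 0.0489 by limma). Both have transcripts under 500 bases, the length class that stood highest in the knockout. Histone genes have near-identical copies between which reads can be split, so the value of Hist2h4 is uncertain. None of the listed hormone, beta cell, glucose sensing, granule or CREB cofactor genes was called. Thbs1 had the smallest adjusted p among the lower genes outside the acinar list, 1.32 lower (SE 0.190) at an adjusted p of 0.0566 by limma.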

How the data were processed

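The 4 islet columns of the knockout table (1 library per genotype and treatment) carry no unit. They were taken as FPKM made by the authors, since the lowest deposited values, once multiplied by transcript length, gather at a single value in each library; dividing by it gave the estimated reads. The submitters' processing notes name TopHat2 2.0.9, STAR, HOMER, DESeq2 and mm10; the tool behind this table is not given in the sources. Transcript lengths, wild-type controls and hepatocyte levels came from the authors' deposited tables of regularised log2 expression, normalised separately. Positions are from GENCODE M21.

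Computed here: log2 ratios with 1 FPKM added, for genes with at least 10 FPKM in the higher library; exact intervals on estimated reads; ratios minus the median of the 301 genes nearest in length; and limma 3.58.1 (R 4.3.3) with a variance trend and Benjamini-Hochberg adjustment, tested on simulated data. There were 4 rows of repeated symbols left out. No label says that libraries came from separate mice, so p-values measure only a possibly technical spread. The members and 31 gene lists were chosen with earlier results of these data known. Named genes were a set always named, the 15 largest ratios each way (at least 20 estimated reads and 500 bases), up to 6 members per list and the 10 smallest adjusted p-values each way; others are given as chosen after their values were seen. Promoter motifs were not analysed here, and some named genes are not reported here.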

Additional observations from a re-analysis of the deposited data

Results flagged for a closer look

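Of the 271 genes at least 2-fold apart at baseline, 21 had a log2 ratio of at least 0.5 in the opposite direction in the forskolin pair. The 4 of these described here are the ones among the genes with the 15 largest ratios each way, taken over all genes or with other cell types set apart. With 1 library per group the difference between pairs was not tested. Mt1 was at 2708 FPKM in wild type and 932 in knockout at baseline, and at 6120 and 9570 FPKM with forskolin, so its log2 ratio of -1.54 stood beside one of 0.64. Mt2 was at 1626 and 554 FPKM at baseline and at 3097 and 4476 FPKM with forskolin, with ratios of -1.55 and 0.53. Tmem60 had a ratio of 1.41 at baseline and -0.98 with forskolin, from values of at most 12.4 FPKM. LOC100504703, for which no transcript length was at hand, was listed at 0 in wild type and 11.4 FPKM in knockout at baseline, a ratio of 3.64, and the other way round with forskolin, at 3.64 and 0 FPKM.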

How the results depend on the processing

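No paired analysis was possible because each group held 1 library and the columns carry no replicate numbers; for the same reason no library could be left out with a residual remaining. At baseline, 164 genes stood at least 2-fold higher and 107 lower. With 5 FPKM added these were 100 and 55, after rescaling without hormone, acinar and hepatocyte genes 355 and 52, with a minimum of 1 FPKM 519 and 237, and with a minimum of 50 FPKM 35 and 37. Past 1.5-fold there were 553 and 623, past 3-fold 63 and 35, and without other cell types and short or unmeasured transcripts, a choice made after seeing the data, 89 and 64 (100 and 64 with the added liver genes kept in). Adjustment for length was also added after seeing the data. In the 4-library fit, 26 genes higher and 8 lower became 0 and 0 without a variance trend (1051 at an unadjusted p under 0.05) and 0 and 0 with genotype alone (303). The lower count was 15 with 5 FPKM added and 2 after quantile normalisation. The higher count was 40 with a minimum of 1 FPKM, and a minimum of 50 FPKM gave 46 and 25. Quantile normalisation turned the fitted differences of Ins1 to 0.75, Ins2 to 1.18, Sst to -0.68 and Iapp to -0.00. This normalisation replaces each value by the mean of its rank over libraries. Mir5133, a short transcript that cannot be read, was at 943982 FPKM in the wild-type baseline library and at 0 in the others. Mir5133 thus ranked above Ins2 (807124 FPKM) in that library alone. The turned values are therefore not read as hormone differences, and the part of this rank shift in each was not tested. Depth limits genes near 10 FPKM most, above all in the knockout forskolin library.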
